A study of Mus musculus with 6 samples.

Results

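Cytochrome *c* oxidase, the last enzyme of the mitochondrial electron transport chain, was examined here through the subunits that exist in alternative tissue forms. Of the 9 genes considered (*Cox8a*, *Cox8b*, *Cox7a1*, *Cox7a2*, *Cox7a2l*, *Cox6a1*, *Cox6a2*, *Cox4i1* and *Cox4i2*), chosen by their symbols, 8 had a row in a table of 19509 gene symbols and 6 passed the filter on low counts. The expression of *Cox4i1* was not analysed here, and this gene enters only through its sequence. RNA was sequenced from iWAT, the inguinal subcutaneous white fat depot, of C57BL/6 mice given Western diet for 12 weeks. Of 6 libraries, 3 were labelled *Lexis*-AdWT and came from Cre-negative littermates with floxed *Lexis* alleles, and 3 were labelled *Lexis*-AdKO and carried the same floxed alleles together with *Adipoq*-Cre, which is active in adipocytes. *Lexis* is a long noncoding RNA, and the comparison asks how its loss from adipocytes alters the tissue. Other cell types of the depot keep the gene, and fewer cells of a type cannot be told apart from less RNA per cell in bulk tissue.

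Cytochrome *c* oxidase passes electrons from cytochrome *c* to oxygen and pumps protons across the inner mitochondrial membrane. Its catalytic core is encoded by mitochondrial DNA, and small nuclear subunits surround that core. Several of these small subunits come in pairs, with a form made in most tissues and a form typical of heart, skeletal muscle and, for *Cox8b* and *Cox7a1*, brown fat. *Cox8b* and *Cox7a1* are for that reason often used as markers of brown and beige adipocytes.

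The libraries held between 14470542 and 17882713 counts. The targeted gene was read as *4930412L05Rik*, a lincRNA gene on chromosome 4 of mm9 from 53217938 to 53230729 and next to *Abca1*, as *Lexis1* is in RefSeq. The 3 libraries labelled AdWT had 8, 9 and 8 counts of it and the 3 labelled AdKO had 21, 11 and 13, so it was not lower in the latter (log2 fold change 0.87, SE 0.381, adjusted *P* = 0.851 by edgeR's quasi-likelihood test). This count does not separate deleted from retained parts of the gene. The groups are therefore called by their labels, and every direction below follows those labels. Skeletal muscle transcripts set AdWT replicate 2 apart. The 8 genes of a skeletal muscle list that had a row summed to between 17.9 and 174 CPM (counts scaled to library size) in AdWT, the highest in replicate 2, and to between 4.47 and 6.11 CPM in AdKO. White adipocyte markers were abundant, with *Adipoq* at 6412 ± 1145 CPM (SD, n = 3) in AdWT and 5381 ± 787 CPM (SD, n = 3) in AdKO, and *Fabp4* at 33491 ± 1593 and 28628 ± 1381 CPM (SD, n = 3 each).

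The pair that differed most between the groups encodes subunit 8, and its coding sequences are shown because they let a reader see how far the forms have diverged. They are the reference sequences of GENCODE transcripts on mm9, with the letters all in lower case.
Cox8b: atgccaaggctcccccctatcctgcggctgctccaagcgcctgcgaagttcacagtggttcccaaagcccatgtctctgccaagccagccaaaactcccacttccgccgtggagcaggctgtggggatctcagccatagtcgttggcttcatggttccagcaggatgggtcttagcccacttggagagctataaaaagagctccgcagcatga
Cox8a: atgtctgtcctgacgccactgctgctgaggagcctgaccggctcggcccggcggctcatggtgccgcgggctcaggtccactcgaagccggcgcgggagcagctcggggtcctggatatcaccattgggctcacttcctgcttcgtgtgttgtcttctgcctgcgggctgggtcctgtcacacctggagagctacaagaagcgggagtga
These were 213 and 210 bases long and identical at 111 of 207 aligned bases, or 53.6%. The longest run shared by the full transcripts of *Cox8b* and *Cox8a* was 10 bases. For *Cox7a1* and *Cox7a2* the identity was 62.6% with a longest shared run of 12 bases, and for *Cox6a2* and *Cox6a1* it was 64.6% with 12 bases. *Cox8a* had 2 near-identical copies elsewhere in the genome (at least 90% identity over at least 80% of the transcript) and *Cox6a1* had 1, so reads of these ubiquitous forms may be shared with other loci, while the muscle forms had 0.

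The regions around the start sites of the paired genes also differed in composition. The windows below run from 250 bases before to 30 bases after the annotated start and are read on the strand of the gene in mm9. They are shown for the subunit 8 and subunit 6a pairs, with matches to 4 of the searched motifs in capitals. The motifs were TATAAA (the TATA box), TTCCGG (the core bound by GABP and other ETS factors), GCGCATGC (the core bound by nuclear respiratory factor) and CAGCTG (an E-box of muscle genes), searched on both strands.
Cox8b, chr7:148086316-148086595, minus strand: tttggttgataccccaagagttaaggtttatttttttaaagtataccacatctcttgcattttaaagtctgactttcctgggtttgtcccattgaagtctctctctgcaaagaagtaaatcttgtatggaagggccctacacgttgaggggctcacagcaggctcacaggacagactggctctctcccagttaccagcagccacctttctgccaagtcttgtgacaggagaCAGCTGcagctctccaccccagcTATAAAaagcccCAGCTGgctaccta
Cox8a, chr19:7292077-7292356, minus strand: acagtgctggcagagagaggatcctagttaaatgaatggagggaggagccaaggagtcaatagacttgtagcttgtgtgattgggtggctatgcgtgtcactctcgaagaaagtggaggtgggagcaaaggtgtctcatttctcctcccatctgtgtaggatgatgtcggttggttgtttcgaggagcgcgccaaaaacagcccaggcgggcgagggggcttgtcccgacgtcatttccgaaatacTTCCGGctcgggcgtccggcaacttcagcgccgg
Cox6a2, chr7:135349851-135350130, minus strand: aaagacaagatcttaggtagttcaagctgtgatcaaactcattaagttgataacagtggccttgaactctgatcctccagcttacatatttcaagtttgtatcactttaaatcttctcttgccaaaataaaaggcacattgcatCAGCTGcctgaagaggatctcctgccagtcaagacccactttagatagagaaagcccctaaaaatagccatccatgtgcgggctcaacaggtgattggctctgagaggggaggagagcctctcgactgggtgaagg
Cox6a1, chr5:115798961-115799240, minus strand: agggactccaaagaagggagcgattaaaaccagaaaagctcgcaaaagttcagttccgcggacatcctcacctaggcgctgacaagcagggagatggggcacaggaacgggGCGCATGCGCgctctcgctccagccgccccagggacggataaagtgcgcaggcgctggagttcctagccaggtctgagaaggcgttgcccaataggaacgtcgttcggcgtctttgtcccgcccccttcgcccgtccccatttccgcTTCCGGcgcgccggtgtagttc

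The window held 1 CpG dinucleotide in *Cox8b*, 2 in *Cox6a2* and 6 in *Cox7a1*, against 17 in *Cox8a*, 18 in *Cox7a2* and 27 in *Cox6a1*. Over 22380 protein-coding promoters the quartiles were 3, 10 and 21, so each muscle form lay under the median and each ubiquitous form above it. TATAAA was present in *Cox8b* of the 9 genes, from 5 to 10 bases after the annotated start, and 13% of all promoters held it. CAGCTG occurred 2 times in *Cox8b*, 1 time in *Cox6a2* and 1 time in *Cox4i1*, against 13.7% of promoters. TTCCGG occurred in all 3 ubiquitous partners, 1 time each, and 4 times in *Cox4i1*, and in no muscle form, with 16.6% of promoters holding it. GCGCATGC was found 2 times, overlapping, in *Cox6a1* (3.14% of promoters), and AAGGTCA, the core of an oestrogen-related receptor element, was found in none of the 9 windows (3.74% of promoters). These matches describe letters in the windows and no binding was measured.

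**Figure D1:**
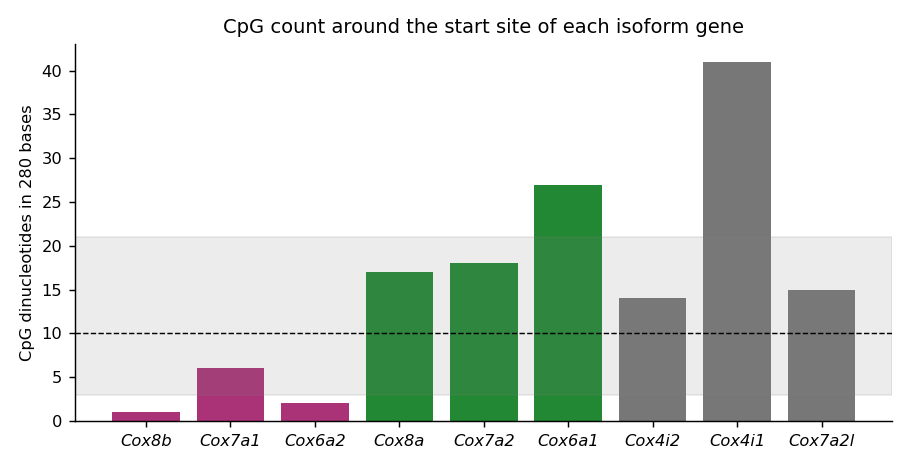
CpG dinucleotides in the window of 280 bases around the annotated start of each gene, with muscle and brown fat forms in purple, ubiquitous partners in green and the other members in grey. The dashed line is the median of all promoters, 10, and the band their quartiles, 3 to 21, and the muscle forms lie at 1, 6 and 2.

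Ubiquitous forms dominated in iWAT. On a scale of CPM per kilobase of transcript, *Cox8a* stood at 1254 ± 141 in AdWT and 1169 ± 50.2 in AdKO, and *Cox6a1* at 1129 ± 150 and 1005 ± 25 (SD, n = 3 each). The ranges of *Cox8a* and *Cox6a1* overlapped in AdWT (1102 to 1383 and 981 to 1281) but not in AdKO (1116 to 1215 and 981 to 1031). *Cox7a2* followed at 315 ± 25.1 and 299 ± 7.6, then *Cox8b* at 113 ± 23.7 and 172 ± 24.4, and these ranges did not meet any neighbour's. *Cox7a1* lay at 17.4 ± 2.61 and 16 ± 1.38, above *Cox6a2* at 7.05 ± 2.29 and 7.24 ± 1.5, without overlap. *Cox8b* was thus the most abundant of the 3 muscle forms per length in every library.

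**Figure D2:**
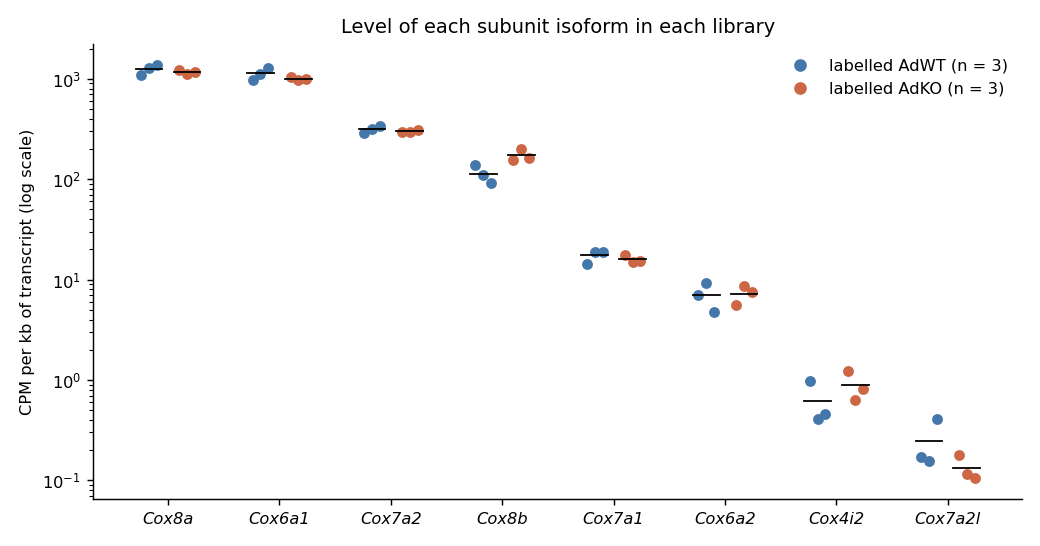
Level of each member in each library in CPM per kilobase of transcript on a log axis, in blue for libraries labelled AdWT and orange for those labelled AdKO, with a bar at each group mean. The members span from about 1254 for *Cox8a* to 0.133 for *Cox7a2l*, and *Cox8b* is the member whose groups are apart.

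*Cox8b*, the muscle and brown fat form of subunit 8, lies on chromosome 7 from 148084842 to 148086345 and has 2 exons. Libraries labelled AdWT held 769, 665 and 498 counts, and libraries labelled AdKO held 811, 1100 and 982. Scaled to library size by TMM, this was 50.2, 39.7 and 33.3 CPM against 55.7, 72.3 and 58.9 CPM. Each library labelled AdKO was above each labelled AdWT, and across the groups AdWT replicate 1 and AdKO replicate 1 were the closest. The log2 fold change was 0.60 ± 0.167 (SE), with an unadjusted *P* = 0.00783 and an adjusted *P* = 0.847 in edgeR's quasi-likelihood fit, with the Benjamini-Hochberg method applied over 9872 rows. Permuting the libraries exactly, on log2 CPM and two-sided, gave *P* = 0.1, the lowest value available to 3 libraries against 3. In the same fit 85 rows had a smaller *P* than *Cox8b*. DESeq2 gave an adjusted *P* of 0.299 for it.

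Of the 6 members tested, 0 had an adjusted *P* under 0.05, as did 0% of all 9872 rows by edgeR, whose smallest adjusted *P* was 0.206. DESeq2 called 16 rows of the table, none of them a member. At an unadjusted *P* under 0.05 edgeR passed 566 rows (5.73%), of which 272 were higher in AdKO (2.76% of those tested), and *Cox8b* was the only member among them. *Cox8b* was also the only tested member whose groups did not overlap, against 11.9% of rows in either direction and 6.16% with AdKO higher.

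In the other muscle forms the groups overlapped, and whether these forms differ from *Cox8b* in their response was not tested. *Cox7a1*, on chromosome 7 from 30969190 to 30971047 with 4 exons, encodes the muscle and brown fat form of subunit 7a. It had 80, 115 and 103 counts in AdWT and 93, 83 and 93 in AdKO, and the groups overlapped, with AdWT replicate 1 the lowest library and AdWT replicates 2 and 3 the highest. The log2 fold change from AdWT to AdKO was -0.12 (SE 0.176, adjusted *P* = 0.904 by edgeR), and it lay between -0.24 without AdWT replicate 1 and -0.06 without AdWT replicate 2. *Cox6a2*, on chromosome 7 from 135348950 to 135349880 with 3 exons, encodes the heart and skeletal muscle form of subunit 6a. It had 71, 103 and 47 counts in AdWT and 54, 86 and 82 in AdKO. The highest and the lowest library were both labelled AdWT, and the groups differed by 0.03 on the log2 scale (SE 0.281, adjusted *P* = 0.986 by edgeR). This difference lay between -0.19 without AdWT replicate 3 and 0.29 without AdWT replicate 2.

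None of the ubiquitous partners passed the test, with estimates of AdKO over AdWT just below 0 on the log2 scale. *Cox8a*, on chromosome 19 from 7289648 to 7292106, had 9197, 11650 and 11279 counts in AdWT and 9650, 9245 and 10677 in AdKO, the groups differing by -0.10 on the log2 scale (SE 0.0974, adjusted *P* = 0.885 by edgeR). *Cox7a2*, on chromosome 9 from 79603048 to 79607660, had 3341, 3996 and 3833 counts and then 3207, 3412 and 3858, the groups differing by -0.08 on the log2 scale (SE 0.0764, adjusted *P* = 0.885 by edgeR). *Cox6a1*, on chromosome 5 from 115795651 to 115798990, had 8577, 10771 and 10949 counts and then 8575, 8516 and 9542, the groups differing by -0.17 on the log2 scale (SE 0.104, adjusted *P* = 0.853 by edgeR). In TMM-scaled CPM the highest library was AdWT replicate 3 for all 3 partners, and the groups overlapped. With single libraries left out, *Cox6a1* lay between -0.26 (without AdWT replicate 1, unadjusted *P* = 0.0193 by edgeR) and -0.08 (without AdWT replicate 3, unadjusted *P* = 0.416 by edgeR), *Cox8a* between -0.18 and -0.03 and *Cox7a2* between -0.13 and -0.03.

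A ratio of forms within a library does not depend on the scaling of that library. Per 100 *Cox8a* reads there were 8.36, 5.71 and 4.42 *Cox8b* reads in AdWT and 8.4, 11.9 and 9.2 in AdKO, a mean of 6.16 ± 2.01 against 9.83 ± 1.83 (SD, n = 3 each). The mean log2 ratio was higher by 0.71 in AdKO, or 1.63-fold (exact permutation, two-sided, *P* = 0.1, the lowest attainable, and adjusted *P* = 0.3 over 3 pairs). The groups did not overlap, but AdWT replicate 1 and AdKO replicate 1 were not distinguishable by counting error. *Cox8b* made up 7.72% of the pair's reads in the former (95% Wilson interval 7.21 to 8.26) and 7.75% in the latter (7.26 to 8.28), and these intervals cover counting error only. Corrected for transcript length, *Cox8b* stood at 9.28 ± 3.03 per 100 *Cox8a* in AdWT and 14.8 ± 2.76 in AdKO (SD, n = 3 each).

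Neither of the other ratios separated the groups. *Cox7a1* reads per 100 *Cox7a2* reads were 2.39, 2.88 and 2.69 in AdWT and 2.9, 2.43 and 2.41 in AdKO, a log2 difference of -0.04 (exact permutation, two-sided, *P* = 1, adjusted *P* = 1). *Cox6a2* reads per 100 *Cox6a1* reads were 0.828, 0.956 and 0.429 in AdWT and 0.63, 1.01 and 0.859 in AdKO, a log2 difference of 0.23 (exact permutation, two-sided, *P* = 0.6, adjusted *P* = 0.9). Without AdWT replicate 3 the latter was -0.12. The *Cox4i2* to *Cox4i1* ratio was not analysed here.

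**Figure D3:**
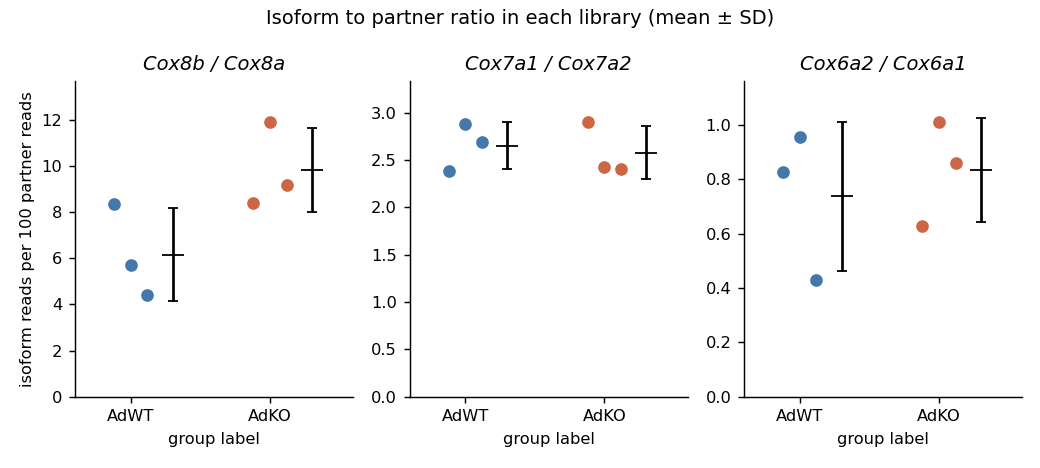
Reads of each muscle form per 100 reads of its ubiquitous partner in each library, with the group mean and SD in black and each axis starting at 0. For *Cox8b* the libraries labelled AdKO lie from 8.4 to 11.9 and those labelled AdWT from 4.42 to 8.36, and the groups overlap for the other pairs.

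The remaining members were near the lower limit of the table. *Cox4i2*, the lung and hypoxia-inducible form of subunit 4, lies on chromosome 2 from 152579909 to 152590773. Its main row had 11, 5 and 5 counts in AdWT and 13, 7 and 10 in AdKO, or 0.45 ± 0.233 and 0.651 ± 0.22 CPM (SD, n = 3 each). The groups overlapped, with a difference of 0.29 in log2 CPM, which understates changes of such low genes because of the 0.5 added, (exact permutation, two-sided, *P* = 0.3). It lay between 0.48 without AdWT replicate 1 and 0.14 without AdKO replicate 1, alternatives chosen after seeing the data. *Cox7a2l*, a subunit 7a relative that takes part in joining complexes III and IV, lies on chromosome 17 from 83901259 to 83913673. It had 3, 3 and 7 counts in AdWT and 3, 2 and 2 in AdKO, and its other row was at 0 throughout. Most of these lie at or under the floor of 3 counts, so no fold is given. Other widely expressed genes were also listed near 0, such as *Surf1*, an assembly factor named after its values were seen, with 2 to 8 counts a library, and the part of the counting in this was not tested.

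For the rest of the enzyme the estimates lay nearer to 0 than that of *Cox8b*, and these differences between genes were not tested. Of 10 other nuclear subunits 8 had a row and 6 were tested, of which 2 were higher and 4 lower in AdKO, none with an unadjusted *P* under 0.05. Their median log2 fold change was -0.04, beside 0.007 over all rows. The 4 with the smallest *P* were *Ndufa4* at -0.10 (SE 0.098), *Cox7c* at -0.12 (SE 0.116), *Cox6b1* at -0.06 (SE 0.0811) and *Cox7b* at 0.05 (SE 0.0854). The mitochondrially encoded catalytic subunits *mt-Co1* and *mt-Co2* had log2 fold changes of -0.09 (SE 0.166) and 0.12 (SE 0.122). Of 26 assembly factors 18 were tested, with a median of -0.07. An unadjusted *P* under 0.05 was met by *Cox20*, a chaperone of subunit 2, at 0.25 (SE 0.101), and in the other direction by *Coa6*, which takes part in copper delivery, at -0.49 (SE 0.157) and *Cox19*, a copper-related factor, at -0.20 (SE 0.0806). None passed adjustment (adjusted *P* = 0.851 for each by edgeR). *Higd2a*, the next by *P*, was at -0.10 (SE 0.0572).

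**Figure D4:**
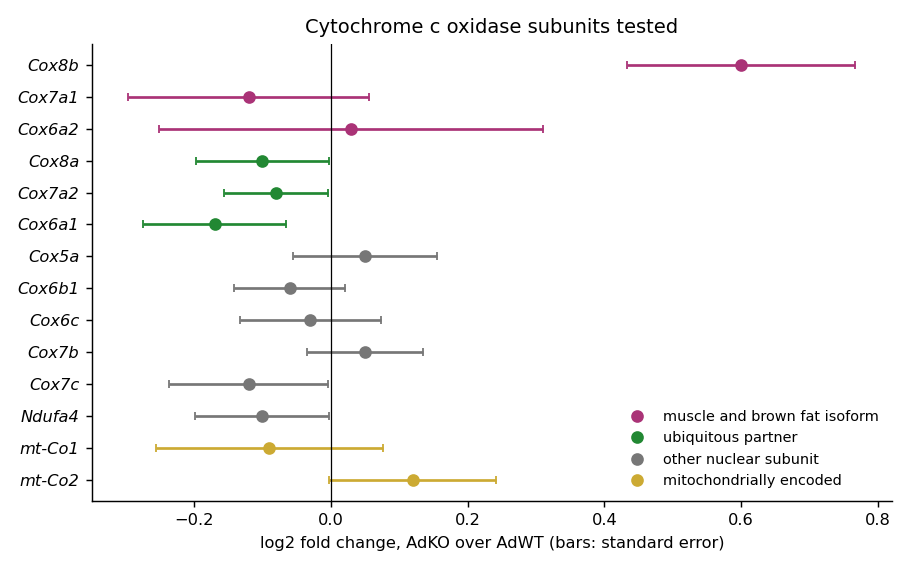
Log2 fold change of AdKO over AdWT with its SE for the 14 cytochrome *c* oxidase subunits tested. *Cox8b* lies at 0.60, and the other subunits lie between -0.17 and 0.12.

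Markers of muscle and of brown fat were set beside the muscle forms. Of 6 skeletal muscle genes tested, 6 were lower in AdKO with an unadjusted *P* under 0.05, and none passed adjustment. *Atp2a1*, the fast muscle calcium pump, had 208, 1214 and 38 counts in AdWT and 8, 10 and 14 in AdKO, and *Ckm*, muscle creatine kinase, had 87, 576 and 29 against 0 in each. *Tnnc2*, a troponin of fast fibres, had 73, 340 and 43 against 17, 7 and 14. *Tcap*, a titin cap protein, had 20, 129 and 17 against 0, 1 and 4, the myosin light chain gene *Mylpf* had 78, 285 and 50 against 23, 21 and 19, and *Myh4* was at 0 in every library. The groups did not overlap for 5 of the 6 tested, beside 11.9% of all rows in either direction. They overlapped for *Myh1*, a fast myosin heavy chain, which had 36, 365 and 91 against 40, 29 and 38. *Cox6a2* was highest in AdWT replicate 2, the library highest in *Atp2a1*, whereas *Cox8b* there was below AdWT replicate 1 and every AdKO library. With the muscle list as a covariate the log2 fold change of *Cox8b* was 0.61 (SE 0.387, unadjusted *P* = 0.164 by edgeR). That of *Cox6a2* was 0.96 (SE 0.504, unadjusted *P* = 0.105, adjusted *P* = 1 by edgeR). The summed muscle list did not overlap between the groups, so this fit cannot separate muscle content from the label. These values are not effects corrected for muscle.

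*Ucp1*, the uncoupling protein of brown and beige adipocytes, had 25, 8 and 7 counts in AdWT and 21, 58 and 67 in AdKO. Like *Cox8b*, it was highest in AdKO replicates 2 and 3 and lowest in AdWT replicates 2 and 3. Unlike *Cox8b*, its groups overlapped at replicate 1. AdKO over AdWT was 1.85 on the log2 scale for *Ucp1* (SE 0.574, unadjusted *P* = 0.0135, adjusted *P* = 0.851 by edgeR). Of 8 brown or beige genes 6 were tested, 3 higher and 3 lower, and their median difference was 0.01 on the log2 scale. *Pparg*, among the lower at -0.10 (SE 0.166), is by the paper's account required in all adipocytes. It therefore does not mark brown or beige cells, and the tally and the median rest partly on it. At an unadjusted *P* under 0.05 1 was higher, *Ucp1*, and 1 was lower, *Kcnk3*, and none passed adjustment. *Ppargc1a* and *Otop1* were listed at 0 in every library, and the part of the counting in these values was not tested. The lower genes included *Kcnk3*, a potassium channel, at -0.29 (SE 0.0791, unadjusted *P* = 0.00672 by edgeR) and *Dio2*, which activates thyroid hormone, at -0.56 (SE 0.357). *Elovl3*, a fatty acid elongase, stood at 0.84 (SE 0.379). The summed level of the list was 294 to 338 CPM in AdWT and 264 to 281 CPM in AdKO, most of it from *Kcnk3* at 257 ± 21.4 and 209 ± 7.58 CPM (SD, n = 3 each), while *Ucp1* was at 0.859 ± 0.67 and 3.09 ± 1.43 CPM and *Cidea* at 37.7 ± 12.1 and 41.1 ± 7.49 CPM.

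**Figure D5:**
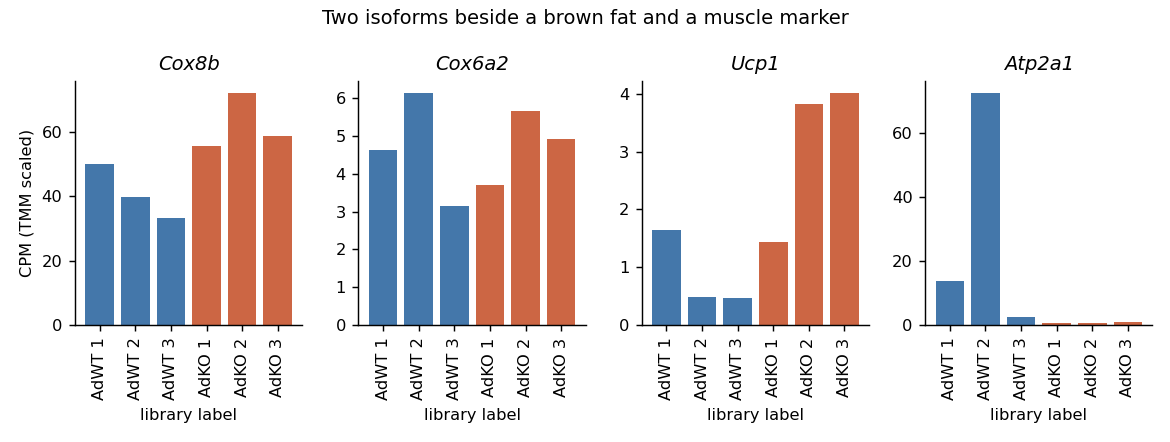
TMM-scaled CPM of *Cox8b*, *Cox6a2*, the brown fat marker *Ucp1* and the muscle marker *Atp2a1* in each library, with blue bars for libraries labelled AdWT and orange for AdKO, each axis starting at 0. *Atp2a1* peaks in AdWT replicate 2, as does *Cox6a2*, while *Cox8b* and *Ucp1* are highest in libraries labelled AdKO.

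Other cell types were checked for the same libraries. Epithelial markers summed to 20.2 CPM in AdWT replicate 3 and 47.9 CPM in AdKO replicate 3, and to between 0.892 and 1.44 CPM elsewhere. Lymphocyte markers summed to 8.82 to 21.4 CPM in AdWT, the highest in replicate 1, and 8.17 to 15 CPM in AdKO. Macrophage markers summed to 218 to 395 CPM in AdWT and 362 to 497 CPM in AdKO, lowest in AdWT replicate 3, where *Cox8b* was also lowest, and highest in AdKO replicate 2, where *Cox8b* was highest. This sum was nearly all *Mrc1*, at 321 ± 91.7 and 425 ± 67.2 CPM (SD, n = 3 each), with *Csf1r* at 0.766 ± 0.431 and 1.02 ± 0.49 CPM and *Adgre1* at 0 in every library. The part of these cells in the level of *Cox8b* was not tested. Pericyte and smooth muscle markers summed to 329 to 531 CPM in AdWT and 440 to 492 CPM in AdKO, fibroblast markers to 89.7 to 113 and 84.4 to 120 CPM, and endothelial markers to 788 to 1154 and 770 to 1093 CPM. The pericyte sum was mostly *Notch3*, at 267 ± 74.3 and 274 ± 42.5 CPM (SD, n = 3 each), and *Tagln*. In that list *Kcnj8*, *Abcc9*, *Pdgfrb* and *Myh11* were near 0. The fibroblast sum was mostly *Pi16*, at 81.6 ± 12.1 and 80.4 ± 16.2 CPM (SD, n = 3 each), with *Pdgfra* near 0. The endothelial sum was nearly all *Cdh5*, at 938 ± 192 and 935 ± 162 CPM (SD, n = 3 each), a log2 fold change of -0.00 (SE 0.175). Estimates for the pericyte and smooth muscle list were 0.43 for *Tagln* (SE 0.191), -0.09 for *Higd1b* (SE 0.177), 0.05 for *Cspg4* (SE 0.149) and 0.03 for *Notch3* (SE 0.198). In the fibroblast list *Dpp4* was at 0.21 (SE 0.131) and *Pi16* at -0.02 (SE 0.162). Among lymphocyte markers *Cd3g* was at -0.49 (SE 0.251), *Cd79a* at -0.78 (SE 0.784) and *Cd3e* at -0.05 (SE 0.327), and the epithelial marker *Epcam* was at 2.60 (SE 1.38). No gene of these 4 lists had an unadjusted *P* under 0.05. White adipocyte markers summed to 46039 to 54458 CPM in AdWT and 41238 to 41890 CPM in AdKO, without overlap. Most of this sum was *Fabp4*, at 33491 ± 1593 and 28628 ± 1381 CPM (SD, n = 3 each). Of the 4 tested, 2 had every AdKO library below every AdWT library, beside 11.9% of all rows without overlap in either direction. *Lep*, a white adipocyte hormone, had a log2 fold change of -0.46 (SE 0.161, unadjusted *P* = 0.0221, adjusted *P* = 0.851 by edgeR), *Fabp4* -0.23 (SE 0.131), *Adipoq* -0.25 (SE 0.167) and *Plin1* 0.10 (SE 0.0981).

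The genes most like each muscle form across the 6 libraries were listed by Pearson's *r* of log2 CPM, as a description with no test. For *Cox8b* these were *Rab39* (0.992), *Mcm4* (0.990), *Vta1* (0.988), *Cmtm3* (0.987) and *Rab44* (0.986). For *Cox7a1* they were *Hdac5* (0.997), *Slc1a4* (0.991), *Ddx20* (0.990), *Akap7* (0.989) and *Usp39* (0.987). For *Cox6a2* they were *Slc25a51*, *Med17*, *Kctd5*, *Thap1* and *Ikbip*, from 0.979 to 0.991, and for *Cox4i2* they were *Selm*, *Fam131a*, *B3gat3*, *Sf3b2* and *Dtymk*, from 0.970 to 0.985. All points are the same 6 libraries of 1 tissue, and the genes were picked from 9872 rows for this likeness.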

How the data were processed

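Reads were mapped with HISAT2 (mm9) by the authors, who deposited raw read counts, with no normalization, for 37024 rows in 6 libraries. The counting tool was not given in the sources used here, and the submitters' processing notes name DESeq2. No column lacked a sample. A symbol with more than 1 row was represented by its row of highest total. Counts were compared with edgeR 4.0.16 (R 4.3.3, limma 3.58.1), using filterByExpr, TMM and the quasi-likelihood test, with Benjamini-Hochberg adjustment over 9872 rows. Standard errors (SE) were taken from the log2 fold change over the root of F. Ratios and log2 CPM used 0.5 as pseudocount and exact permutation tests (scipy 1.17.1). Alternatives included DESeq2 1.42.0. The edgeR and DESeq2 fits were also run on simulated counts, and that outcome is not reported here. Loci, transcripts and promoters came from GENCODE on mm9. Named genes were all members, the up to 4 tested genes with smallest *P* in each list, defining markers, and the 5 rows most correlated with a muscle form or *Cox4i2*. The members and lists were chosen with earlier results of these data known. Nothing says whether libraries differ in batch. The edgeR *P* values set a group difference against the spread between these samples, and the permutation *P* values set it against relabelled libraries. The common biological coefficient of variation was 0.196. A count of 0 allows up to 3 counts, or 0.168 to 0.207 CPM. The expression of *Cox4i1* was not analysed here, so the ratios were adjusted over 3 pairs.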

Additional observations from a re-analysis of the deposited data

How the results depend on the processing

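Of 187 alternative values over 13 results, 178 stayed the same and 7 reversed direction. For ratios and CPM differences, same meant the same direction only. For fold changes it also meant the same side of an adjusted *P* of 0.05, which no row passed in the main fit. For numbers of members it meant an unchanged number. The number of members called stayed at 0 in all 17 alternatives, and *Cox8b* stayed higher in AdKO in all of them. Leaving out single libraries put *Cox8b*, as log2 fold change, between 0.46 (without AdWT replicate 3) and 0.77 (without AdWT replicate 1), and its log2 ratio to *Cox8a* between 0.49 and 0.95. The number of members with an unadjusted *P* under 0.05, 1 in the main comparison, was 0 with the muscle list as a covariate, where *Cox8b* was at 0.61 with a larger SE (0.387 against 0.167), and 1 to 2 with a library left out, the 2 without AdWT replicate 1. The *Cox7a1* to *Cox7a2* ratio ran from -0.13 to 0.02, turning positive without AdWT replicate 2 (0.02) and without AdKO replicate 3 (0.01), and was 0.00 with the summed partners in place of *Cox7a2*, an alternative chosen after seeing the data. The *Cox6a2* to *Cox6a1* ratio ran from -0.12 to 0.45. *Cox7a1* reversed to 0.01 with the muscle covariate, and *Cox6a2* was 0.96 with it (SE 0.504, unadjusted *P* = 0.105 by edgeR). The covariate fit cannot separate muscle content from the label, as the summed muscle list did not overlap between the groups. With single libraries left out, *Cox6a2* was highest at 0.29 (AdWT replicate 2 left out) and reversed to -0.19 without AdWT replicate 3 and to -0.11 without AdKO replicate 2. The causes were not tested. Whether the replicate numbers pair the libraries cannot be settled with 3 libraries a group. Correlations of deviations were -0.0764, -0.132 and 0.33 for like numbers, and between -0.33 and 0.411 for unlike numbers. Epithelial markers were high in replicate 3 of both groups. With the replicate block the *Cox8b* to *Cox8a* ratio difference was 0.71 (two-sided exact sign-flip *P* = 0.25, the smallest 3 pairs allow). Low counts limit *Cox4i2* and *Cox7a2l*.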
